A study of Homo sapiens with 16 samples.

Results

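The comparison described here set 2 arrays of A673 cells taken 53 h after doxycycline against 4 arrays taken at 0 h, 6 of the 16 arrays of the series, chosen by the time given in their titles. A673 is an established Ewing sarcoma cell line. Both groups came from 1 clone of it, Asp14, which carries a vector for a short hairpin RNA against EWS-FLI1 that doxycycline switches on and a second vector that the labels call TR, and both were grown with zeocin and blasticidin, which select for these vectors. The 53 h group had doxycycline at 1 ug/ml, and the 0 h group was sampled when doxycycline was added and is labelled as control. Arrays at 18 h, 36 h, 72 h and 96 h contributed to the estimate of the spread, and those at 36 h and 72 h were compared with 53 h. No untreated culture was sampled after 0 h, so effects of doxycycline itself, of time in culture and of the fall in the fusion cannot be told apart. The labels number the replicates without saying whether each was a separate culture, and the spread that the tests rest on may be technical.

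EWS-FLI1 joins a part of EWSR1 to the DNA-binding part of FLI1, a transcription factor of the ETS family, and drives Ewing sarcoma by switching some genes on and others off. The study is titled for the functional link between this fusion and E2F. E2F factors turn on genes for entry into S phase and for DNA replication. The pocket proteins RB1, RBL1 and RBL2 hold E2F in check until cyclin-dependent kinases phosphorylate them, and RBL1 and RBL2 also take part in a complex that silences cell cycle genes in resting cells.

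Values are log2 expression values per gene on the deposited scale, and differences between them are log2 changes, so that a change of 1 is a doubling of the signal. The 16 arrays had upper quartiles of 8.08 to 8.18, and their number limits the precision. The 3′ probe set of ACTB exceeded its 5′ probe set, a gap that widens as RNA degrades, by log2 values of 2.34 and 1.83 at 53 h and 2.06, 1.90, 1.91 and 1.47 at 0 h. Replicates 2 and 3 at 0 h lay closer together (SD of the log2 difference over genes 0.176) than the other pairs of 0 h arrays (0.368 to 0.456), while the 53 h pair had an SD of 0.285. Whether replicates 2 and 3 at 0 h are separate cultures was not tested, and counts with such pairs averaged are given in the closing part on processing. All 8 blood cell markers measured were below log2 4 on these 6 arrays. Of 10 epithelial markers only KRT18 was above it (8.50 at 53 h and 9.06 at 0 h, means), and of 9 endothelial markers only KDR, at 53 h alone.

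Of the genes that passed the filter on low values, most changed. Of 7304 genes tested, 4845 (66.3%) passed a limma adjusted p of 0.05 after Benjamini-Hochberg adjustment over all of them, 2322 higher (31.8%) and 2523 lower (34.5%). The median log2 change over all genes was -0.01, on values normalized to 1 common distribution. With no filter on low values, 5628 of 11963 genes passed, 2314 higher and 3314 lower, so that 41.1% of the calls were higher, against 47.9% with the filter. Changes of at least 1 were found among 1133 of the genes called higher (15.5% of those tested) and 1052 of those called lower (14.4%). The values of both groups did not overlap for 5525 genes (75.6%), and 4747 genes met both conditions. Every count of a gene list below is to be read against these shares. In bulk RNA, fewer cells expressing a gene and less RNA per cell cannot be told apart.

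**Figure D1:**
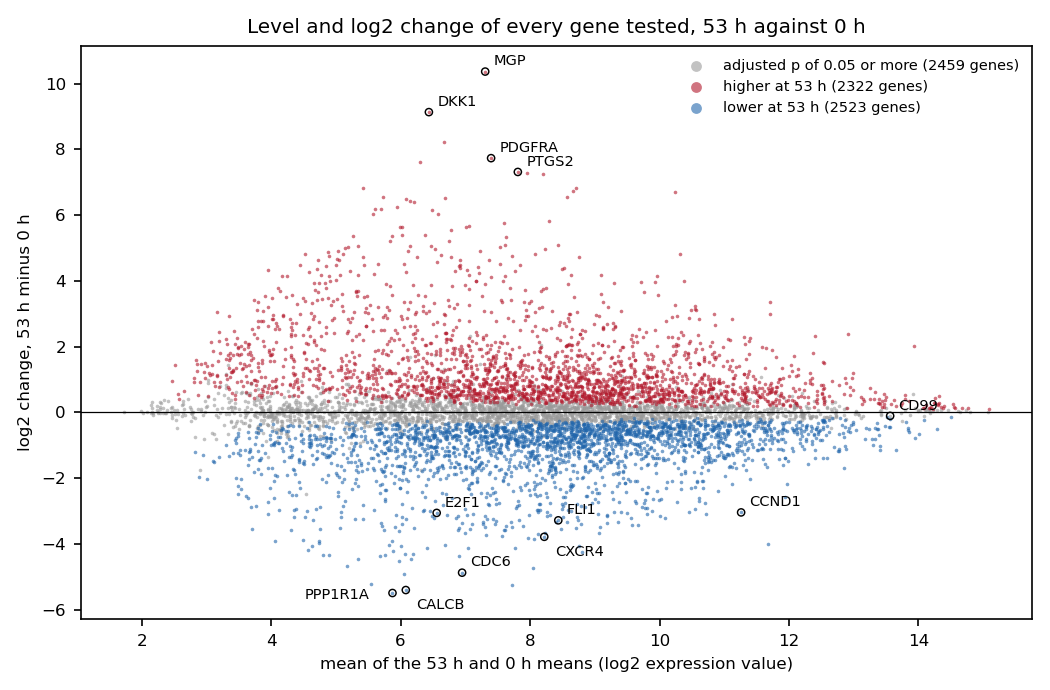
Log2 change at 53 h against 0 h (vertical axis) by the mean of both group means (horizontal axis, log2 expression value) for the 7304 genes tested, with genes called higher in red, called lower in blue and others in grey. MGP and DKK1 are at the top with changes of 10.37 and 9.14, PPP1R1A and CALCB at the bottom with -5.49 and -5.40, and CD99 is near 0 at -0.10.

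The plot of level against change shows that rises reached further than falls. MGP and DKK1, at the top, were below log2 4 on every 0 h array. In 234 genes called higher no probe set reached log2 4 on any 0 h array, and in 137 called lower none did so on either 53 h array. Their folds are written as "at least", counted from log2 4 in the dimmer group.

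The target of the hairpin was checked first. FLI1 read 6.90 and 6.69 at 53 h, against 10.17, 10.08, 10.06 and 9.99 at 0 h. The groups lay far apart, with a log2 change of -3.28 ± 0.16 (SE), a level 9.71-fold lower (limma adjusted p = 2.42e-09). EWSR1, the other partner, read 8.71 and 8.52 at 53 h, against 9.32, 9.38, 9.31 and 9.40 at 0 h, a change of -0.74 ± 0.10 (limma adjusted p = 2.38e-05). Where their probe sets lie relative to the fusion point was not analysed here. Of 7 Ewing sarcoma markers measured, all were above log2 4 on the 6 arrays, and 6 fell. These 6 were FLI1 and EWSR1 themselves, and PRKCB, STEAP1, NKX2-2 and CAV1, which are named again below. The exception was CD99, the surface protein used to diagnose Ewing sarcoma, at 13.51 ± 0.01 at 53 h and 13.62 ± 0.22 at 0 h (SD, n = 2 and 4).

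Genes known to be switched on by the fusion mostly fell. Of 24 tested members of this list, 19 fell and 2 rose, with a median change of -1.95, and 3 of the other listed genes on the array were below the filter on low values. PPP1R1A, an inhibitor of protein phosphatase 1, read 3.14 and 3.12 at 53 h, against 8.59, 8.41, 8.30 and 9.18 at 0 h. It was lower by at least 24.6-fold. PRKCB, a protein kinase C, read 6.88 and 6.53 at 53 h, against 10.61, 9.91, 9.91 and 10.52 at 0 h, a change of -3.53 ± 0.26. These arrays did not overlap in either gene. CALCB, a neuropeptide of the calcitonin family, was at least 27.5-fold lower, and CCND1, the cyclin of early G1, fell by 3.04 on the log2 scale. The surface protein STEAP1 fell by 2.73, the kinase VRK1 by 3.01 and the transcription factor NKX2-2 by 1.17. BCL11B, another transcription factor, fell by 3.39 and the caveolar protein CAV1 by 0.80 (limma adjusted p between 1.89e-05 and 3.29e-09 for these 5).

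The 2 members that went the other way were UPP1, which splits uridine, and TNC, the matrix protein tenascin C. UPP1 rose by 2.15 ± 0.22 (limma adjusted p = 1.85e-06) and TNC by 0.82 ± 0.16 (adjusted p = 0.000509), where the mean of the 2 probe sets of TNC gave 1.32. The remaining 3 missed the threshold, ITM2A at -0.19 (limma adjusted p = 0.496), GLI1 at 0.25 (adjusted p = 0.533) and PLD2 at 0.36 (adjusted p = 0.097), and are named because there are so few of them.

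Genes known to be held down by the fusion all rose. The count was 9 of 9 tested, with a median change of 3.36. DKK1, a secreted inhibitor of Wnt signalling, read 11.03 and 10.98 at 53 h, against 1.83, 1.81, 1.79 and 2.04 at 0 h. It was near background at 0 h alone and was at least 128-fold higher at 53 h. SPRY1, a feedback inhibitor of growth factor receptors, read 11.57 and 11.60 at 53 h, against 4.78, 4.80, 3.72 and 3.94 at 0 h. Its change was 7.28 ± 0.30 (limma adjusted p = 7.59e-10). FOXO1, a transcription factor restrained by insulin signalling, rose by 3.37 ± 0.23, the early response gene IER3 by 3.36 ± 0.23, and TGFBR2, the type II receptor of TGF-beta, by 2.31 ± 0.14. IGFBP3, which binds insulin-like growth factors, was at least 2.51-fold higher, the mean of its 2 probe sets giving a change of 1.34.

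**Figure D2:**
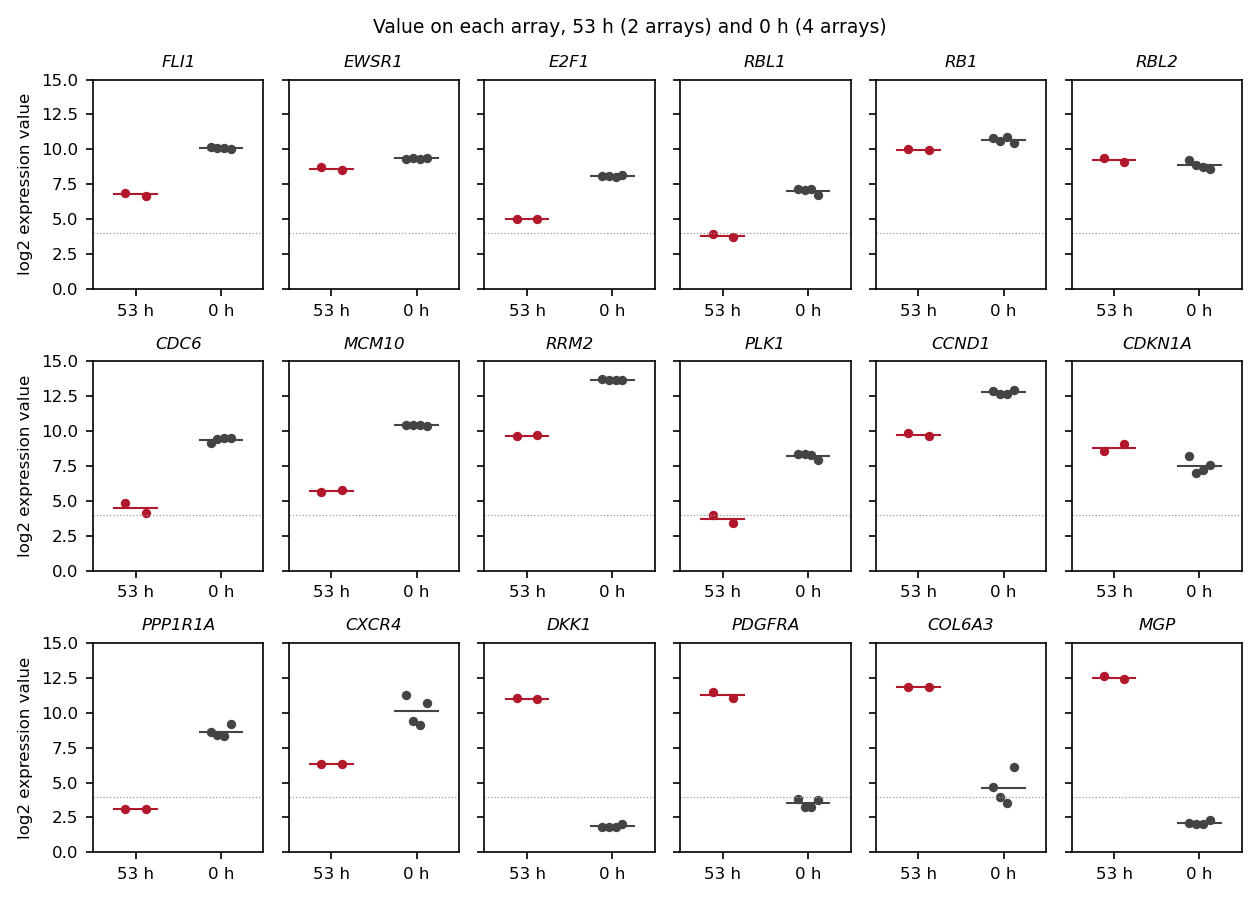
Log2 expression value on each array for 18 genes, with the 2 arrays at 53 h (red, left in each panel) and the 4 at 0 h (black, right), horizontal bars at the group means and a dotted line at log2 4. The groups do not overlap in 17 of the 18 panels. In RBL2 the value of 1 array at 0 h lies between those at 53 h.

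The plot of single arrays shows how tight the replicates were in most of these genes. The widest spread at 0 h among those drawn was that of COL6A3 and CXCR4.

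In the E2F and RB family, 8 of 10 tested genes fell and none rose, with a median change of -1.16, and 2 more were below the filter. E2F1, an activator of S phase genes, read 5.04 and 5.02 at 53 h, against 8.10, 8.07, 8.01 and 8.17 at 0 h. This was a change of -3.05 ± 0.15 (limma adjusted p = 2.15e-09). E2F8, an atypical E2F that represses, read 4.20 and 4.15 at 53 h, against 7.71, 7.92, 7.87 and 7.12 at 0 h, a change of -3.48 ± 0.29. Activator and repressor forms both fell. The repressive E2F5 fell by 2.37, the activator E2F3 by 0.89, the repressor E2F6 by 0.64, and TFDP1, the dimerisation partner of E2Fs, by 1.43. The mean of 2 probe sets gave changes of -1.20 for E2F5 and -0.52 for E2F3.

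The pocket proteins differed among themselves. RBL1 (p107) read 3.91 and 3.71 at 53 h, against 7.15, 7.11, 7.16 and 6.72 at 0 h. It was lower by at least 8.20-fold. RB1 read 10.02 and 9.95 at 53 h, against 10.80, 10.59, 10.85 and 10.43 at 0 h, a change of -0.68 ± 0.15 (limma adjusted p = 0.0015), and of -0.44 as the mean of its 2 probe sets. RBL2 (p130) read 9.37 and 9.09 at 53 h, against 9.20, 8.88, 8.76 and 8.61 at 0 h. These arrays overlapped, and its change of 0.36 ± 0.15 missed the threshold (limma adjusted p = 0.0508), while it passed as a rise under 6 of the alternative settings, with changes of 0.36 to 0.50. TFDP2, another dimerisation partner, changed by -0.04 ± 0.20 (limma adjusted p = 0.885).

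Promoters of genes in this family and of the replication machinery are printed here because they show the letters that E2F binds, in genes of these lists that fell and hold them. Each window runs from 250 bases before to 50 bases after the start of the gene, in RefSeq annotation of GRCh38.p14, 5′ to 3′ along the strand of the gene, 300 bases in all. Capitals mark the E2F letters searched, TTTNNCG on either strand with CC, GG, CG or GC at NN.
CDC6 (chr17:40287629-40287928, plus strand): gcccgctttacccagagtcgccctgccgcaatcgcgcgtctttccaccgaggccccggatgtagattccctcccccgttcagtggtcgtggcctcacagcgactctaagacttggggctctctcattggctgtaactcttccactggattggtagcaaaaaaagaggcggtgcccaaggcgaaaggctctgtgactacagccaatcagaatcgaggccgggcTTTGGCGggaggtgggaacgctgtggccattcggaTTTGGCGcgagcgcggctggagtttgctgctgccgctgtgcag
MCM10 (chr10:13161308-13161607, plus strand): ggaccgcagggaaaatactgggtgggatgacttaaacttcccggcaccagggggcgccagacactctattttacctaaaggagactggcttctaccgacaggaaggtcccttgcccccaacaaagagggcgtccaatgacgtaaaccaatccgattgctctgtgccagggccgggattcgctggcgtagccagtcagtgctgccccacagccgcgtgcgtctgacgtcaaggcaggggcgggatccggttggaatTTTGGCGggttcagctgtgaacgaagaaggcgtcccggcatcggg
RBL1 (chr20:37095948-37096247, minus strand): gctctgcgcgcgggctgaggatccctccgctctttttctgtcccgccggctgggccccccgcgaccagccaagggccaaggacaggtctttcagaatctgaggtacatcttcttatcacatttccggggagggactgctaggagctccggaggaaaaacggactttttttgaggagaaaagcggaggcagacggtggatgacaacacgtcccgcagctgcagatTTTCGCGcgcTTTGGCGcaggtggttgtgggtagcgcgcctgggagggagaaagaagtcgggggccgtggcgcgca
E2F1 (chr20:33686336-33686635, minus strand): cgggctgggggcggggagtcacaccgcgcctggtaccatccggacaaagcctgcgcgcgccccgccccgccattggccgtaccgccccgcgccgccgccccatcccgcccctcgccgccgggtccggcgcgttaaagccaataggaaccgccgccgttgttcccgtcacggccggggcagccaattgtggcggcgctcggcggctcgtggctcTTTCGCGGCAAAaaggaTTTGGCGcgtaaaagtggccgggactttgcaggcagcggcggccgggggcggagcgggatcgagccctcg
The CDC6 window holds 2 such motifs, starting at positions -28 and 7 relative to the start, and the MCM10 window 1, at position 5. RBL1 holds 2, starting at -26 and -16. E2F1 holds 3, of which 2 overlap by 2 letters.

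DNA replication genes fell almost without exception. Of 50 tested, 49 were lower, with a median change of -2.75, and none was higher. RFC5, a clamp loader subunit, changed by -0.03 (limma adjusted p = 0.839) and was the 1 that missed the threshold. CDC6, which loads the replicative helicase, read 4.87 and 4.16 at 53 h, against 9.12, 9.42, 9.49 and 9.51 at 0 h. MCM10, needed to activate that helicase, read 5.60 and 5.77 at 53 h, against 10.43, 10.43, 10.43 and 10.36 at 0 h. Both had stood well above background at 0 h, and their changes were -4.87 ± 0.35 and -4.73 ± 0.31. ORC1, of the origin recognition complex, was at least 17.7-fold lower and CDC45, a helicase cofactor, at least 22.7-fold. DSCC1, of an alternative clamp loader, was at least 11.8-fold lower, the mean of its 2 probe sets giving a change of -2.23. GINS4 fell by 4.37, the helicase subunits MCM5 and MCM7 by 3.26 and 2.76, the clamp loader subunit RFC2 by 2.53 and RPA2, which coats single-stranded DNA, by 2.29 (limma adjusted p between 2.15e-09 and 6.39e-10 for these 5).

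G1 regulators moved both ways. Of 11 tested, 7 fell and 4 rose, with a median change of -1.34. CDC25A, a phosphatase that activates cyclin-dependent kinases, was at least 6.64-fold lower, CDK2 fell by 2.18 ± 0.15, CCNE2, cyclin E2, by 2.68 ± 0.35, and CDKN3, a phosphatase that acts on CDK2, by 3.41 ± 0.17. CCNG2, an unconventional cyclin linked to arrest, rose by 2.69 ± 0.28, the kinase inhibitor CDKN1B (p27) by 1.01 ± 0.17 and CDK6 by 1.08 ± 0.25. CDK6 read 5.10 and 6.35 at 53 h, against 4.66, 4.56, 4.66 and 4.68 at 0 h, and so its 53 h arrays were far apart. CDKN1C (p57) was the fourth, at 4.11 and 3.94 at 53 h and 2.63 to 2.75 at 0 h. CDKN1A (p21), which stands in the list of genes held down by the fusion and was singled out after its values were seen, read 8.57 and 9.04 at 53 h, against 8.24, 7.02, 7.24 and 7.53 at 0 h, a change of 1.30 ± 0.38 (limma adjusted p = 0.00779).

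Enzymes of nucleotide synthesis fell in 19 of 20 cases, with a median change of -1.85. RRM2, the regulated subunit of ribonucleotide reductase, read 9.63 and 9.71 at 53 h, against 13.73, 13.64, 13.66 and 13.65 at 0 h, a change of -4.00 ± 0.19 (limma adjusted p = 1.88e-09). Its level was thus 16-fold lower on a linear scale. Thymidine kinase TK1 fell by 3.04, thymidylate synthase TYMS by 2.58 and DTYMK, which phosphorylates thymidylate, by 2.54. The mean of the 2 probe sets of TYMS gave a change of -1.38. The nucleoside diphosphate kinase NME1 fell by 2.03. IMPDH2, of guanine nucleotide synthesis, changed by 0.12 (limma adjusted p = 0.261).

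DNA repair genes fell in 16 of 17 cases (median -1.95). The helicase BLM fell by 4.31 ± 0.24, the exonuclease EXO1 by 4.06 ± 0.25, BRCA1 by 3.51 ± 0.14 and the checkpoint kinase CHEK1 by 2.84 ± 0.14. NBN, of the complex that senses double-strand breaks, rose by 0.65 ± 0.16 (limma adjusted p = 0.00323), but by 0.21 with its 4 probe sets averaged, and it lost the call without replicate 1 at 53 h.

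In the list of chromatin silencing genes, which also holds other chromatin proteins, 16 of 18 fell (median -1.48). CBX1 and CBX3 missed the threshold at -0.18 and -0.17. ATAD2, a chromatin-bound ATPase, fell by 4.06 ± 0.13, and the histone chaperone ASF1B was at least 14.2-fold lower. Of the histone H3K9 methyltransferases, SUV39H2 was at least 5.40-fold lower and SUV39H1 fell by 2.35 ± 0.12. HMGB1, an abundant DNA-bending protein, read 13.15 and 13.01 at 53 h, against 14.12 to 14.28 at 0 h, a change of -1.13 ± 0.06.

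All 55 tested mitosis genes fell, with a median change of -2.75. PLK1, the kinase that drives mitotic entry and exit, read 4.01 and 3.41 at 53 h, against 8.39, 8.35, 8.31 and 7.90 at 0 h, a change of -4.53 ± 0.28 (limma adjusted p = 1.4e-08). FOXM1, the transcription factor of G2 and mitosis genes, read 5.68 and 5.93 at 53 h, against 9.50, 9.47, 9.44 and 9.16 at 0 h, a change of -3.58 ± 0.15. The kinetochore proteins CENPM and ZWINT fell by 3.80 and 3.22, the spindle checkpoint protein MAD2L1 by 2.93 and TPX2, which activates Aurora A, by 2.89 (limma adjusted p between 1.36e-09 and 6.39e-10 for these 4).

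The promoters of PLK1 and ZWINT, chosen after motif shares were known, are printed because they show the 2 elements most frequent in mitosis genes, CCAAT, which NF-Y binds, and the CHR, TTTGAA, bound by the complex that holds RBL1 or RBL2. Capitals mark either motif on the strand shown, or the CHR read from the other strand, TTCAAA. Windows are built as above.
PLK1 (chr16:23678639-23678938, plus strand): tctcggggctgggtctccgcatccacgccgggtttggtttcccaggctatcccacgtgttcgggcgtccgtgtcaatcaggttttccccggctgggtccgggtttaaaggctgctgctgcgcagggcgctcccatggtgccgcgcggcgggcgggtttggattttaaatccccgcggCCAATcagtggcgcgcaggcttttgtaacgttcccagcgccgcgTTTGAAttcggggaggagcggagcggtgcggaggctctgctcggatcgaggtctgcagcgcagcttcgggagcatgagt
ZWINT (chr10:56361210-56361509, minus strand): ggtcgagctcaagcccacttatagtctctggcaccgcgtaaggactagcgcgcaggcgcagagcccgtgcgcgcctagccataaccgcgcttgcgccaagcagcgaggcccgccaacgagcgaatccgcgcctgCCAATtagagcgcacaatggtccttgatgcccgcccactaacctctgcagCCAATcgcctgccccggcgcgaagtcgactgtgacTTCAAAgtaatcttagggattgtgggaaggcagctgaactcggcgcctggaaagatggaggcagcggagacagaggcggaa
In both, the CHR begins close to the start, at position -29 in PLK1 and -31 in ZWINT, with CCAAT upstream of it, first at -73 in PLK1 and at -116 in ZWINT. Neither window holds an E2F motif of the letters searched.

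Over promoters of all genes, the motif shares differed by list. A window was found for 6129 of the 7304 genes tested. The E2F letters were in 48.8% of replication promoters (21 of 43), 62.5% of E2F and RB family promoters (5 of 8) and 15.2% of mitosis promoters (7 of 46), against 13.8% of all genes tested. The CHR was in 76.1% of mitosis promoters (35 of 46) and 2.33% of replication promoters (1 of 43), against 10.3% of all genes tested. CCAAT, on either strand, was in 80.4% of mitosis and 48.8% of replication promoters, against 37.7%. In all genes called lower the E2F letters were in 17.1%, and in all called higher in 10%. In the whole RefSeq table of 27305 promoters they were in 8.57%. The ETS core CGGAAG was in 40.4% of promoters of genes called lower and 28.2% of those called higher, against 34.3% of all genes tested. These shares are descriptions of fixed letters in fixed windows, in which no binding was measured, and mean GC content was 64.4% in genes called lower and 63.9% in those called higher, and 64.0% in replication and 59.9% in mitosis promoters.

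**Figure D3:**
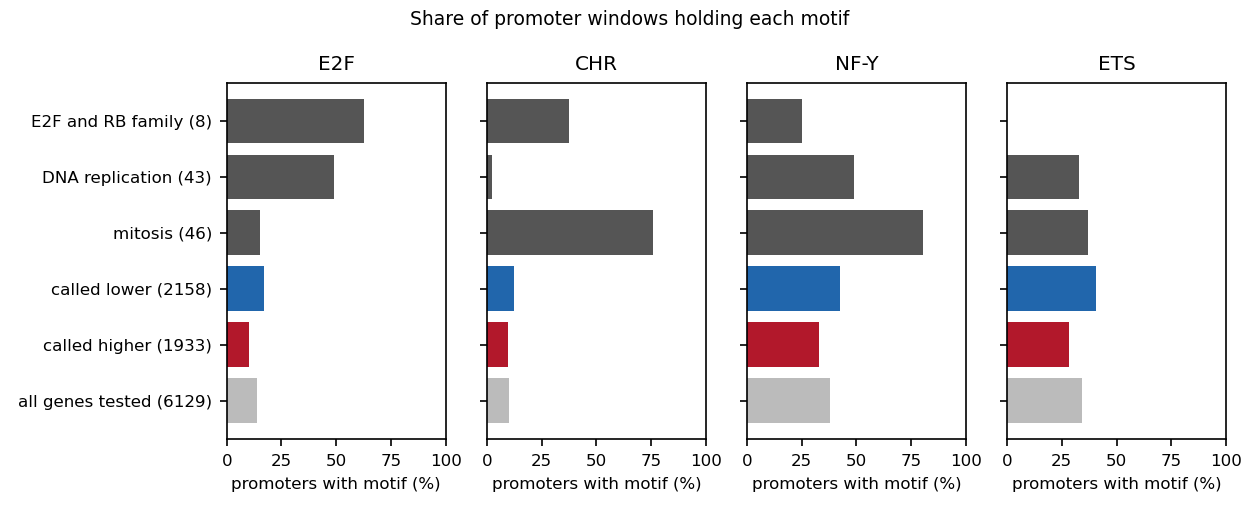
Percentage of promoter windows that hold each of 4 motifs (E2F, CHR, the box bound by NF-Y, ETS), for 3 gene lists, genes called lower, genes called higher and all genes tested, with the number of promoters in parentheses. E2F letters are in 62.5% of E2F and RB family promoters (5 of 8) and 48.8% of replication promoters, and the CHR is in 76.1% of mitosis promoters.

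The bars of motif shares show that the lists with equal median changes of -2.75 held different letters. Replication promoters more often held E2F letters, and mitosis promoters more often the CHR, while the share of mitosis promoters with E2F letters was close to that of all genes tested.

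Genes for the extracellular matrix rose together. Of 41 tested matrix glycoproteins and proteoglycans 34 rose and none fell, with a median change of 1.92, and 9 were below the filter. MGP, an inhibitor of calcification, read 12.61 and 12.38 at 53 h, against 2.08, 2.05, 2.06 and 2.29 at 0 h, and was at least 360-fold higher. VCAN, the proteoglycan versican, read 10.04 and 10.16 at 53 h, against 2.51, 2.43, 2.48 and 2.51 at 0 h, and was at least 68.6-fold higher. The laminin chain LAMA4 was at least 32.1-fold higher (a change of 1.82 as the mean of 5 probe sets) and MATN2, matrilin 2, at least 5.82-fold. NID2, a basement membrane linker, rose by 3.60 ± 0.17, EFEMP2, of elastic fibres, by 1.96 ± 0.11 and THBS1, thrombospondin 1, by 4.26 ± 0.50, the mean of its 5 probe sets giving 1.74.

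Collagens rose in 14 of 19 cases and none fell (median 1.83). COL6A3, a chain of the microfibril collagen VI, read 11.81 and 11.83 at 53 h, against 4.68, 3.96, 3.52 and 6.15 at 0 h, a change of 7.24 ± 0.54 (limma adjusted p = 7.96e-08). The other collagen VI chains, COL6A1 and COL6A2, rose by 2.80 and 2.70, although for COL6A1 the mean of its 8 probe sets gave 1.01. COL1A2, of fibrillar collagen I, read 12.72 and 12.74 at 53 h, against a mean of 7.90 ± 0.19 at 0 h (SD, n = 4), a limma change of 4.83 ± 0.15. The collagen V chains COL5A1 and COL5A2, already bright at 0 h, rose by 2.24 ± 0.15 and 1.37 ± 0.09. The 5 that missed the threshold were COL7A1, COL9A3, COL8A1 and COL15A1, with means below log2 4, and COL21A1, at 12.33 ± 0.13 at 53 h and 12.42 ± 0.16 at 0 h (SD, n = 2 and 4).

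Enzymes that process matrix rose in 21 of 29 cases, and 2 fell (median 1.35). PAMR1, a secreted protease-like protein, read 10.82 and 10.75 at 53 h, against 2.36, 2.35, 2.36 and 3.15 at 0 h, and was at least 110.5-fold higher. The gelatinase MMP2 rose by 3.07 ± 0.15, PCOLCE, which enhances procollagen cleavage, by 2.11 ± 0.12, the cross-linking enzyme LOXL1 by 1.35 ± 0.09, and the serine protease HTRA1 was at least 3.20-fold higher. Those that fell were PLAUR, the urokinase receptor, by 0.80 ± 0.22 (limma adjusted p = 0.00596) and the collagenase MMP1 by 0.48 ± 0.20 (adjusted p = 0.0422). The call of MMP1 was lost under 10 of the alternative settings (adjusted p 0.0549 to 0.185), and without replicate 2 at 53 h neither gene was called.

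Integrin and actin genes rose in 17 of 30 cases and fell in 2 (median 0.53). The integrin chain ITGA4 rose by 3.70 ± 0.25, ITGAV by 2.01 ± 0.15, ITGA5 by 0.96 ± 0.12, ITGB5 by 0.88 ± 0.12 and ITGB1 by 0.52 ± 0.08, the last by 0.07 with its 5 probe sets averaged. The actin-binding CSRP1 and TPM4 fell by 0.62 and 0.55.

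Markers of mesenchymal cells rose in 23 of 28 cases and none fell (median 1.26). SNAI2, a zinc finger repressor of epithelial genes, read 11.64 and 11.77 at 53 h, against 6.83, 8.14, 7.96 and 8.03 at 0 h, a change of 3.96 ± 0.32 (limma adjusted p = 1.53e-07). SOX9, the regulator of cartilage, rose by 3.11 ± 0.18, the cadherin CDH2 by 2.45 ± 0.13 and the calcium-binding S100A4 by 2.47 ± 0.23. ZEB1, another repressor of epithelial genes, was at least 1.46-fold higher by the bound and rose by 0.63 with its 3 probe sets averaged.

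Neural genes moved both ways, 14 higher and 8 lower of 31 tested (median 0.47). Rising members included GAP43, of growing axons, by 3.75 ± 0.16, the adhesion molecule L1CAM by 3.54 ± 0.26 (1.77 as the mean of 2 probe sets) and the semaphorin receptor NRP1 by 3.36 ± 0.23 (1.77 as the mean of 3), while MAP2, of dendrites, was at least 2.94-fold higher. Among those that fell, the adhesion molecule PCDH8 was lower by at least 6.32-fold, ENO2, the neuronal enolase, by at least 8.32-fold, and CNTNAP2, of axon-glia contacts, fell by 3.74 ± 0.31. The list therefore had no single direction.

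Growth factors and their receptors rose in 21 of 30 cases and fell in 2 (median 1.15). PDGFRA, a receptor of platelet-derived growth factor, read 11.45 and 11.08 at 53 h, against 3.84, 3.24, 3.26 and 3.78 at 0 h, by the probe set used. All 4 values at 0 h lay below log2 4, so by this probe set it was at least 153.9-fold higher (limma adjusted p = 1.88e-09), while the mean of its 3 probe sets gave a change of 2.80. PDGFRB, its relative, rose by 2.67 ± 0.16, the PDGF receptor-like PDGFRL was at least 6.47-fold higher and EGFR at least 9.11-fold, the mean of the 6 probe sets of EGFR giving a change of 0.58. IGFBP2, a carrier of insulin-like growth factors, rose by 2.39 ± 0.12 and reached 14.11, the mean of 13.97 and 14.25 at 53 h. KIT, the receptor of stem cell factor, fell by 1.65 ± 0.41 and FGFR3, a fibroblast growth factor receptor, was at least 1.56-fold lower, the mean of its 2 probe sets giving a change of -0.93.

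Feedback inhibitors and immediate early factors of the MAP kinase pathway rose in 18 of 23 cases and fell in 2 (median 1.21). The Sprouty inhibitor SPRY2 read 11.25 and 11.28 at 53 h, against 7.03, 7.59, 7.50 and 7.16 at 0 h, a change of 3.94 ± 0.17. SPRY4 rose by 3.13 ± 0.32, PHLDA1, a target of the pathway, by 4.20 ± 0.37 and the AP-1 subunit JUND by 0.76 ± 0.08. The transcription factor ETS2 was at least 4.92-fold lower and the AP-1 subunit FOSL1 fell by 1.71 ± 0.38 (limma adjusted p = 0.00122).

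In the Wnt pathway 11 of 18 tested genes rose and 1 fell (median 1.11). DKK3, related to the Wnt inhibitor DKK1, rose by 5.56 ± 0.42 with the probe set used and by 2.08 over its 5 probe sets, and the intracellular antagonist DACT1 was at least 25.5-fold higher. The TCF factors TCF7L1 and TCF7L2 rose by 1.84 ± 0.17 and 1.70 ± 0.11, the co-repressor TLE1 by 3.01 ± 0.26, and the receptor FZD1 fell by 0.58 ± 0.14, while the mean of its 2 probe sets gave a change of -0.99. In the TGF-beta and BMP pathways 16 of 25 rose and none fell (median 0.64). TGFBR3, the co-receptor betaglycan, rose by 4.30 ± 0.42, the signal transducer SMAD5 by 1.84 ± 0.15, the receptor ACVR1 by 1.42 ± 0.15, the ligand BMP7 by 1.08 ± 0.11 and the inhibitor of differentiation ID3 by 1.42 ± 0.17.

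Chemokines and cytokines rose in 15 of 23 cases (median 1.06), and 16 listed genes were below the filter. CXCL12, the ligand of CXCR4, read 9.47 and 9.65 at 53 h, against 3.55, 3.48, 3.31 and 3.28 at 0 h, and was at least 47.1-fold higher. CXCR4 itself was the 1 that fell, at 6.34 and 6.32 at 53 h, against 11.24, 9.38, 9.12 and 10.69 at 0 h, a change of -3.78 ± 0.65 (limma adjusted p = 0.00016). Ligand and receptor changed in opposite directions. CXCL14 was at least 28.7-fold higher. PTGS2, the inducible cyclooxygenase, read 11.53 and 11.41 at 53 h, against 4.80, 4.16, 3.76 and 3.88 at 0 h, a change of 7.32 ± 0.25. IL6ST, the shared receptor chain of the interleukin 6 family, rose by 1.56 ± 0.09, and LIF, one of that family, was at least 1.29-fold higher.

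Interferon-stimulated and MHC class I genes rose in 20 of 32 cases and none fell (median 0.78), but in only 12 without replicate 2 at 53 h. IRF9, which joins the STAT factors in the interferon response, read 6.89 and 7.12 at 53 h, against 4.12, 3.83, 3.78 and 4.22 at 0 h, a change of 3.02 ± 0.36 (limma adjusted p = 6.6e-06). The restriction factors IFITM2 and IFITM3 rose by 1.81 ± 0.22 and 1.71 ± 0.22, and IFIT3 and OAS1 were at least 3.37-fold and 1.87-fold higher. Complement genes rose in 6 of 8 cases (median 0.73, or -0.0192 with no filter on low values), with 11 below the filter. SERPING1, the C1 inhibitor, was at least 4.64-fold higher and the protease C1R at least 4.33-fold, the chaperone CLU rose by 1.62 ± 0.23, and the membrane regulators CD46 and CD59 by 0.55 ± 0.09 and 0.71 ± 0.21.

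**Figure D4:**
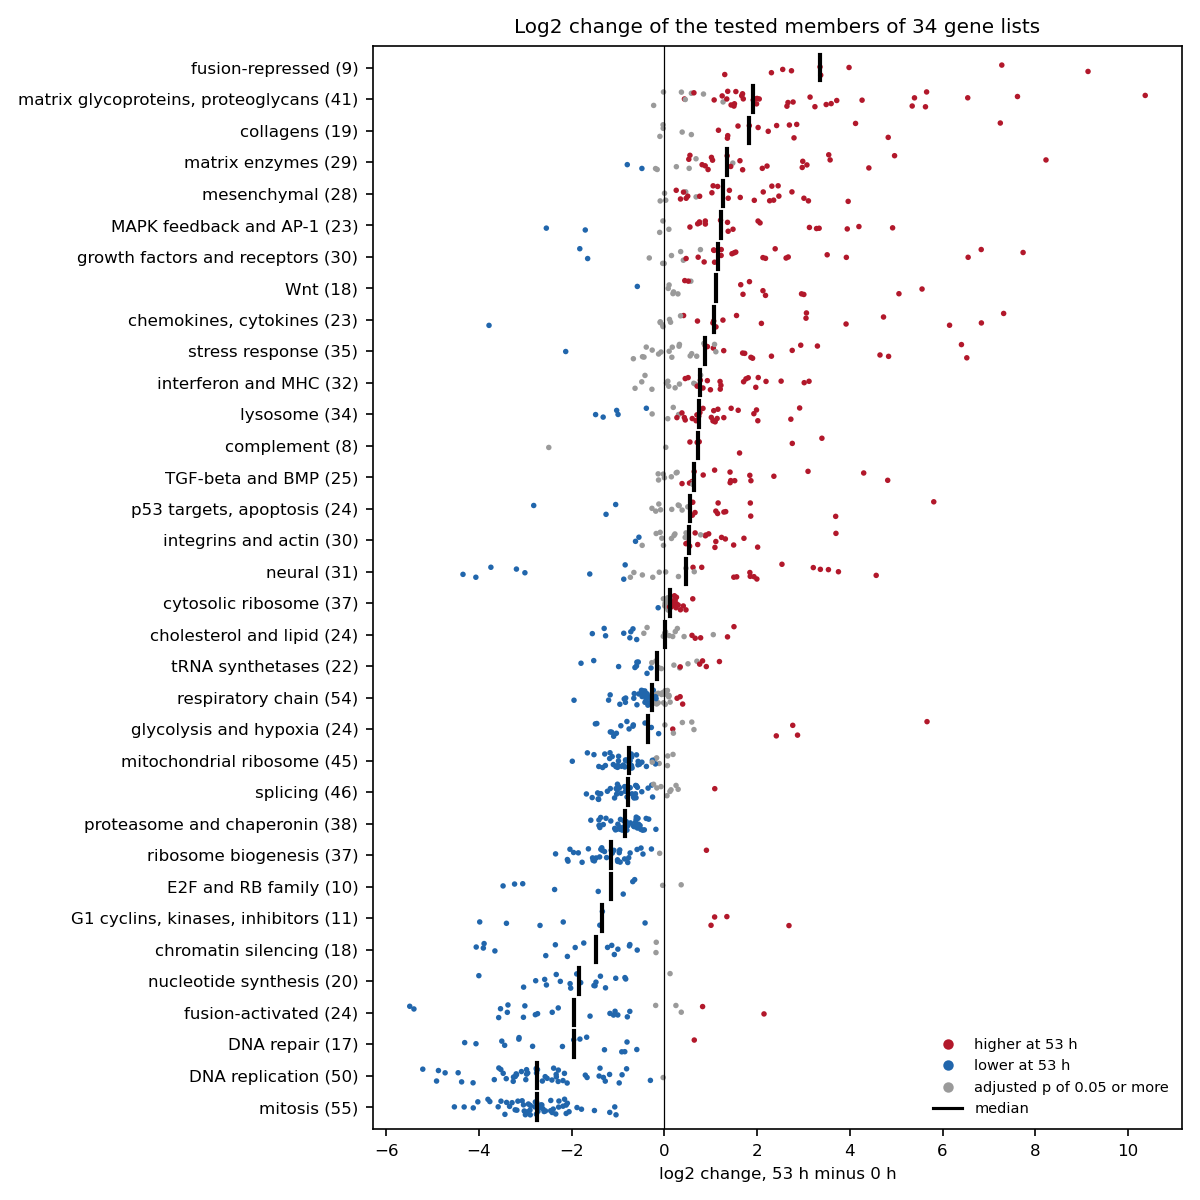
Log2 change at 53 h against 0 h (horizontal axis) of each tested member of 34 gene lists (rows, number tested in parentheses), ordered by the median (black bar). Red points were called higher, blue called lower and grey missed the threshold. Medians ran from -2.75 in mitosis and DNA replication to 3.36 in genes held down by the fusion.

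The plot of the lists shows the lists of mitosis, replication, nucleotide synthesis and repair with 0, 0, 0 and 1 gene called higher, matrix lists near the top with almost no blue, and lists such as neural and cholesterol genes with both colours.

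Genes of the integrated stress and unfolded protein responses rose in 16 of 35 cases and 1 fell (median 0.88). NUPR1, a stress-induced chromatin protein, read 9.92 and 9.97 at 53 h, against 4.34, 2.81, 3.29 and 3.26 at 0 h, a change of 6.52 ± 0.80 (limma adjusted p = 8.93e-06). GDF15, a stress cytokine, read 9.29 and 9.53 at 53 h, against 4.08, 2.39, 2.48 and 3.06 at 0 h. It changed by 6.41 ± 0.67, or by 3.19 with its 2 probe sets averaged. ATF3, a transcription factor of the response, rose by 2.76 ± 0.23, and the receptor VLDLR was at least 11.5-fold higher. MTHFD1, of cytosolic one-carbon metabolism, was the 1 that fell, by 2.13 ± 0.15. Aminoacyl-tRNA synthetases were divided, with 5 of 22 higher and 9 lower (median -0.15). CARS1, EPRS1 and SARS1, which charge cysteine, glutamate with proline, and serine, rose by 0.90, 0.76 and 0.82, and the phenylalanine and valine enzymes FARSA and VARS1 fell by 1.80 and 1.52. HARS1, KARS1 and NARS2, for histidine, lysine and mitochondrial asparagine, fell by 0.63, 0.59 and 0.60. Without replicate 2 at 53 h only 1 of the 5 was called higher.

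Targets of p53 and apoptosis genes rose in 12 of 24 cases and fell in 3 (median 0.56). Activity of p53 itself was not measured, and whether it had a part in these changes was not tested. PLK2, a kinase of the Polo family, read 11.21 and 11.18 at 53 h, against 4.55, 6.41, 5.31 and 5.27 at 0 h, a change of 5.81 ± 0.52 (limma adjusted p = 4.17e-07). TP53I3, an oxidoreductase, rose by 3.69 ± 0.32, the mitophagy receptor BNIP3L by 1.85 ± 0.17 and CASP9, the initiator caspase of the mitochondrial pathway, by 1.11 ± 0.14. The 3 that fell belong to death receptor signalling, FAS by 1.26 ± 0.21, CASP8 by 1.05 ± 0.25 and BID, which CASP8 cleaves, by 2.82 ± 0.18. The mean of the 2 probe sets of CASP8 gave a change of -0.53.

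Genes of protein synthesis did not all move the same way. Ribosome biogenesis factors fell in 35 of 37 cases (median -1.15). MRTO4, of large subunit assembly, fell by 2.08 ± 0.16, TSR1, of small subunit assembly, by 1.54 ± 0.12, WDR12 by 1.40 ± 0.12, the nucleolar protein NCL by 1.12 ± 0.07 and NHP2, which binds guide RNAs, by 1.09 ± 0.09. POLR1D, a subunit shared by RNA polymerases I and III, rose by 0.91 ± 0.09 (limma adjusted p = 1.85e-06), and NPM1 missed the threshold at -0.10. Mitochondrial ribosomal proteins fell in 38 of 45 cases and none rose (median -0.76). MRPL35 read 7.86 and 7.60 at 53 h, against 9.69, 9.67, 9.66 and 9.84 at 0 h, a change of -1.99 ± 0.10. MRPL12 and MRPS34 fell by 1.66 and 1.52, MRPL39 fell by 1.33 and MRPL42 fell by 1.28.

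Cytosolic ribosomal proteins changed little. Of 37 tested 18 rose slightly and 1 fell (median 0.13), and 11 rose when the arrays were quantile normalized a second time. RPL3 read 13.67 and 13.60 at 53 h, against 13.12, 12.95, 12.96 and 13.05 at 0 h, a change of 0.61 ± 0.09 (limma adjusted p = 2.77e-05). RPL10A rose by 0.35, RPL31 by 0.30, RPL30 by 0.26 and RPS27 by 0.25. RPL35 fell by 0.13 ± 0.06, with arrays that overlapped, and lost its call under 11 of the alternative settings.

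Subunits of protein folding and turnover machines fell throughout. All 38 tested subunits of the proteasome and chaperonins fell (median -0.84). PSMD14, the deubiquitinase of the proteasome lid, read 11.20 and 11.02 at 53 h, against 12.79, 12.67, 12.65 and 12.66 at 0 h, a change of -1.59 ± 0.10 (limma adjusted p = 1.44e-08). PSMD12 and PSMC3 fell by 1.41 and 1.26, the chaperonin subunit CCT5 fell by 1.38 and CCT7 fell by 1.15. The ETS core was in 62.5% of the promoters of this list and 57.6% of those of ribosome biogenesis, above the 34.3% of all genes tested. It was also in 51.3% of mitochondrial ribosome and 51.2% of splicing promoters. Among genes known to be switched on by the fusion it was in 11.1% (2 of 18). Binding of the fusion to any of these promoters was not tested. Splicing factors fell in 37 of 46 cases (median -0.79), with SNRPB, SNRPA1 and SNRPA, of the spliceosomal particles, which fell by 1.68, 1.44 and 1.17. SRSF1 fell by 1.40 and HNRNPAB, an RNA-binding protein, by 1.43. TRA2A, a splicing regulator, was the 1 that rose, by 1.09 ± 0.28 (limma adjusted p = 0.00374), but another of its probe sets gave -0.87 (adjusted p = 0.0013), and its direction is uncertain.

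Glycolysis and hypoxia genes fell in 14 of 24 cases and rose in 5 (median -0.35). The enzymes PFKP, LDHA, ENO1 and PGAM1 fell by 1.49, 1.17, 1.03 and 0.67 (limma adjusted p between 1.71e-07 and 4.36e-08). EPAS1, the hypoxia-inducible factor HIF-2 alpha, rose by 5.66 ± 0.63 (2.84 as the mean of its 2 probe sets), SLC2A3, a glucose transporter, by 2.77 ± 0.19 and NDRG1, a hypoxia-responsive gene, by 2.41 ± 0.39. The respiratory chain fell in 31 of 54 cases and rose in 3 (median -0.28). ATP5MC1, of the ATP synthase ring, fell by 1.95 ± 0.12, CYC1 and CYCS, the cytochromes c1 and c, by 1.20 and 1.17, and NDUFAB1 and NDUFA9, of complex I, by 0.87 and 0.83. The 3 rises were NDUFB5 by 0.39, NDUFA10 by 0.34 and UQCRB by 0.27, the last lost under 10 of the alternative settings, and 1 of the 3 was called without replicate 1 at 53 h.

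Cholesterol and lipid genes showed no common direction, with 8 lower and 5 higher of 24 (median 0.02). EBP, a sterol isomerase, fell by 1.55 ± 0.16, PMVK, of the mevalonate pathway, by 1.30 ± 0.20, the fatty acid synthase FASN by 1.27 ± 0.17 and ACLY, which makes cytosolic acetyl-CoA, by 0.68 ± 0.10. The mean of the 2 probe sets of FASN gave a change of -0.65. INSIG1 and INSIG2, which retain the sterol regulator in the endoplasmic reticulum, rose by 1.50 ± 0.32 and 1.36 ± 0.20, and LSS, the lanosterol synthase, rose by 0.60 ± 0.17 (0.28 as the mean of its 3 probe sets). Lysosomal genes rose in 25 of 34 cases and fell in 5 (median 0.75). MANBA, beta-mannosidase, rose by 2.92 ± 0.19, the acid lipase LIPA by 2.02 ± 0.15, HEXA, a hexosaminidase, by 1.59 ± 0.12 (0.85 as the mean of its 2 probe sets), the cholesterol transporter NPC2 by 1.44 ± 0.12 and the protease CTSB by 1.01 ± 0.08. Falls included GLA, alpha-galactosidase A, by 1.48, CTSC, a protease, by 1.32 and ATP6V0B, of the proton pump, by 1.03.

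A few genes outside these lists had large changes. TDO2, which opens the ring of tryptophan, read 12.09 and 11.95 at 53 h, against 4.53, 4.90, 5.25 and 6.51 at 0 h, a change of 6.72 ± 0.37 (limma adjusted p = 5.17e-09). PTX3, a secreted pattern recognition protein, read 13.61 and 13.57 at 53 h, against 4.93, 7.33, 7.35 and 7.95 at 0 h, a change of 6.70 ± 0.97. IGFBP7, a secreted protein that binds insulin-like growth factors, rose by 6.83 ± 0.50. The 0 h arrays of all 3 were more scattered than those at 53 h. Of those that fell, UTS2, the vasoactive peptide urotensin 2, read 5.50 and 4.69 at 53 h, against 11.05, 9.78, 9.89 and 10.64 at 0 h, a change of -5.24 ± 0.92, or -2.63 with its 2 probe sets averaged. ADRB3, a beta-adrenergic receptor, was at least 11.3-fold lower, PKMYT1, a kinase that restrains CDK1, at least 14.6-fold, and AUNIP, a partner of Aurora A, at least 20.9-fold. KDR, a receptor of vascular endothelial growth factor, read 8.64 and 8.50 at 53 h, against 3.67, 3.69, 3.44 and 3.84 at 0 h, and was at least 23.8-fold higher.

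The place of 53 h in the time course was tested against its neighbours, in comparisons that share the 53 h arrays with the one against 0 h. At 53 h against 36 h, 920 genes passed (12.6%), 392 higher (5.37%) and 528 lower (7.23%), a count that was 321 without replicate 2 at 53 h, 552 without replicate 1 at 53 h, 597 without replicate 3 at 36 h and 1711 with array weights. Mitosis genes still moved, with 50 of 55 lower (median -1.19, against -0.05 over all genes), or 27 without replicate 2 at 53 h. Only 7 of 50 replication genes did so (median -0.32), or 2 with only the groups compared and 20 with array weights. Of the replication genes, CDC45 and DSCC1 were already below log2 4 on every array at 36 h, where a further fall could hardly be seen. PLK1 was at 3.71 ± 0.42 at 53 h and 6.39 ± 0.38 at 36 h (SD, n = 2 and 3), a change of -2.67 ± 0.29 (limma adjusted p = 7.26e-05), while MCM10 was at 5.69 ± 0.12 at 53 h and 5.52 ± 0.67 at 36 h, a change of 0.16 ± 0.32 (adjusted p = 0.814). Whether the lists differ in this step was not tested.

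EDN1, the vasoconstrictor endothelin 1, was at 8.54 ± 0.12 at 53 h and 3.33 ± 0.43 at 36 h (SD, n = 2 and 3), and so at least 23.3-fold higher (limma adjusted p = 2.81e-06), its 36 h values being below log2 4 on all 3 arrays. By the same bound THBS1 was at least 18.6-fold higher over this step, TNFSF18, a ligand of the TNF family, at least 6.40-fold and CEMIP, which degrades hyaluronan, at least 4.31-fold. EPAS1, measured above log2 4 at both times, rose by 4.44 ± 0.66. Among falls, ENO2 was at 2.71 ± 0.02 at 53 h and 5.41 ± 0.34 at 36 h, and NEFM, a neurofilament subunit, at 9.99 ± 0.07 at 53 h and 12.32 ± 0.43 at 36 h. FLRT1, an adhesion protein, fell by 2.09 ± 0.33, and RNFT2, a ring finger protein, was at least 1.15-fold lower. NEFM had no call at 53 h against 0 h (change 0.64 ± 0.50, limma adjusted p = 0.267), and passed with array weights, at a change of 1.04.

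At 72 h against 53 h, 1215 genes passed (16.6%), 410 higher (5.61%) and 805 lower (11%). With arrays centred on their median the split was 513 higher and 528 lower, so the excess of falls depends on scaling, and the total was 468 without replicate 1 at 53 h, 578 without replicate 1 at 72 h and 621 without replicate 2 at 72 h. Chemokines and cytokines rose further in 13 of 23 cases (median 1.63, against -0.07 over all genes), and 29 of 55 mitosis genes fell further, or 6 without replicate 1 at 53 h. CFI, the complement factor I, was at 7.75 ± 0.16 at 72 h and 2.00 ± 0.06 at 53 h (SD, n = 2 each), and so at least 13.4-fold higher (limma adjusted p = 3.38e-10), and PTPRE, a tyrosine phosphatase below log2 4 on both 53 h arrays, was at least 20.1-fold higher. IGFBP3 rose by 5.23 ± 0.24, A2M, a protease inhibitor of plasma, by 4.69 ± 0.50 and PRL, prolactin, with 1 of 2 arrays above log2 4 at 53 h, by 4.83 ± 0.50. Genes below log2 4 on both 72 h arrays were INHBE, an inhibin subunit, at least 11.3-fold lower at 72 h, SLAMF1, a receptor of lymphocytes, at least 9.92-fold, and SOSTDC1, an antagonist of BMP and Wnt, at least 10.2-fold. The call of INHBE was near the threshold, with a change of -4.66 ± 1.45 (limma adjusted p = 0.0432). The peptide transporter SLC15A2 was at least 7.08-fold lower by the probe set used.

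A peak, higher at 53 h than at both 36 h and 72 h with both steps past the threshold, was found in 30 genes, and a trough in 13. B3GALT2, a galactosyltransferase, was at 3.02 ± 0.06 at 36 h, 6.52 ± 0.78 at 53 h and 3.02 ± 0.02 at 72 h (SD, n = 3, 2 and 2). CAPN6, a calpain without protease activity, was at 4.02 ± 1.01 at 36 h, 7.71 ± 0.23 at 53 h and 5.21 ± 0.86 at 72 h. LUM, the proteoglycan lumican, was at 5.50 ± 0.13, 6.62 ± 0.41 and 3.85 ± 0.69 at these times. The peaks of LUM, ADAMTS1, a matrix protease, and NR4A1, an orphan nuclear receptor, each lost the call against 36 h without replicate 1 at 53 h. ADAMTS1 had no call against 0 h, with a change of 0.68 ± 0.39 (limma adjusted p = 0.134).

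Among the troughs, ENO2 was at 5.41 ± 0.34 at 36 h, 2.71 ± 0.02 at 53 h and 3.94 ± 0.43 at 72 h. NMB, the peptide neuromedin B, was at 5.51 ± 0.58, 4.51 ± 0.38 and 6.42 ± 0.15, MAP1A, a microtubule-associated protein, at 7.74 ± 0.21, 6.44 ± 0.16 and 7.31 ± 0.19, and IKBKB, a kinase of NF-kappa B signalling, at 6.67 ± 0.40, 5.95 ± 0.06 and 6.82 ± 0.04. PCYT1A, of phosphatidylcholine synthesis, had a trough at 3.73 ± 0.02, while another of its probe sets rose, by 0.81 against 0 h (limma adjusted p = 0.0121), so that its direction is uncertain. All 5 of these troughs lost the call of 1 step without replicate 2 at 53 h.

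**Figure D5:**
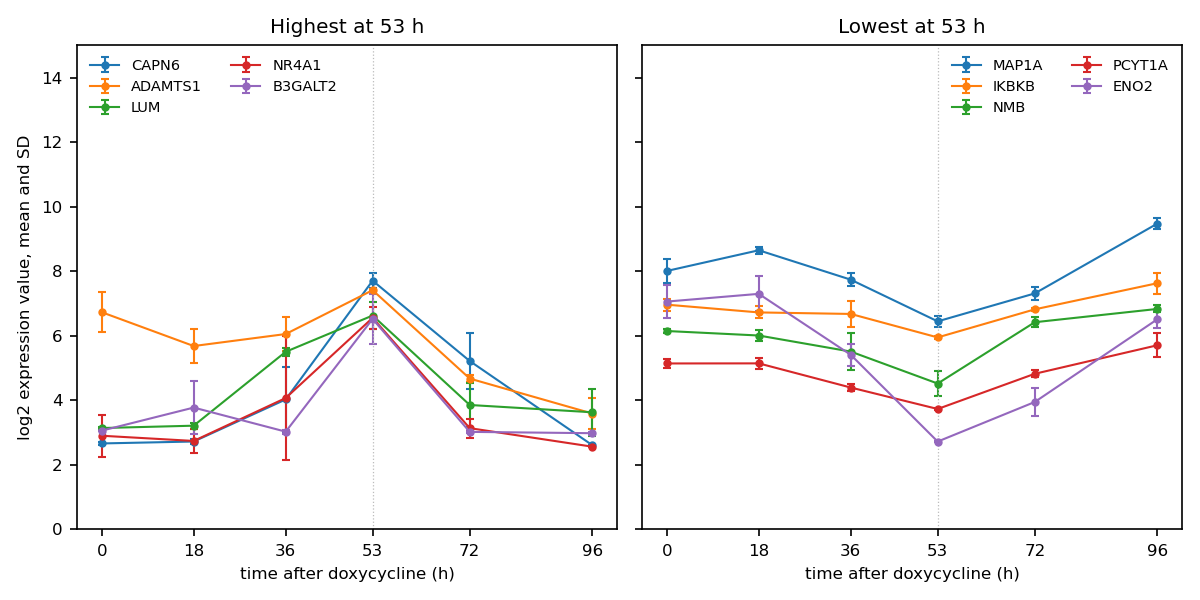
Mean log2 expression value with SD (vertical axis) by hours after doxycycline (horizontal axis; n = 4, 3, 3, 2, 2 and 2 arrays from 0 h to 96 h) for 5 genes called as peaks (left) and 5 called as troughs (right) at 53 h, with a dotted line at 53 h. B3GALT2 stands at 6.52 at 53 h and 3.02 at both neighbouring times, and ENO2 reaches 2.71 at 53 h. The means of ENO2 at 53 h and 72 h are both below log2 4.

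The time courses show that these genes differ in their course outside the interval. The 5 genes on the right were all higher at 96 h than at 53 h by their means, and the 5 on the left were all lower. As the genes were picked for extreme values at 53 h, this can follow from the choice alone.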

How the data were processed

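RNA of 16 Affymetrix arrays had been labelled by a one-cycle biotin protocol, per the labels. The authors deposited 1 log2 value per probe set and array, for which the submitters' processing notes name GCRMA, a method that corrects background, normalizes arrays to one distribution and summarises probes; its version is not given in the sources used here. Of 22277 probe sets (62 controls), 19070 carried 1 gene symbol in the platform annotation, 1043 several and 2164 none, and only those with 1 were named. Each of 11963 genes was represented by its probe set with the highest mean, and 7304 reached log2 4 on at least 2 arrays. One linear model with a mean per time was fitted over all 16 arrays with limma 3.58.1 in R 4.3.3 (lmFit, eBayes, trend on, residual degrees of freedom 10), and p-values were Benjamini-Hochberg adjusted over the 7304 genes at a threshold of 0.05. Errors of changes are the model's standard errors.

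The text names FLI1, EWSR1, every E2F and RB family member tested, and the 12 highest and 12 lowest called changes with no overlap between arrays of the groups. It also names the 5 highest and 5 lowest changes of each time step, up to 5 members per list by adjusted p with up to 3 called against the list's majority, and 5 peak and 5 trough genes at 53 h. Other names were added after values were seen. The comparison, its gene lists and tests were chosen with earlier results of these data known. Promoters came from RefSeq (GRCh38.p14). On simulated data with 200 of 7304 genes changed, the fit for 53 h against 0 h called 74% of those changed by 1 and 30% of those changed by 0.5 on the log2 scale, with 5 false calls. In the data a far larger share, 66.3%, was called, and the simulated noise was normal and independent between genes and arrays. These rates therefore need not hold for the data. Alternatives changed the probe set rule, the filter, the scaling, the arrays fitted, the variance model and the threshold, or left out 1 array at a time.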

Additional observations from a re-analysis of the deposited data

Results flagged for a closer look

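The 4 arrays at 0 h were searched, in the 257 genes named by rule, for a highest or lowest value set apart from the others by Dixon's criterion, which chance alone meets in about 1 group in 20. It was met in 27 genes (10.5%), by replicate 4 in 17, by replicate 1 in 8, and by replicates 2 and 3 in 1 each. Replicates 2 and 3 at 0 h lay closest to each other, and the part of that closeness in these counts was not tested.

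Replicate 4 at 0 h was the one apart for the matrix and secreted genes A2M at 2.33, DKK1 at 2.04, DKK3 at 3.06, IGFBP3 at 3.22, MGP at 2.29 and PAMR1 at 3.15, and for SLAMF1 at 1.78 and TLE1 at 6.41. The same array stood apart in the cell cycle genes DSCC1 at 7.18, MCM10 at 10.36, PLK1 at 7.90 and RBL1 at 6.72. It did so too in FARSA at 9.55, LSS at 8.47, MRPL42 at 11.94, PFKP at 11.29 and PMVK at 7.12. Replicate 1 at 0 h stood apart in CCNE2 at 6.59, CDKN3 at 10.65, LDHA at 13.22, NR4A1 at 3.86, PSMD14 at 12.79, SNAI2 at 6.83, TRA2A at 8.65 and UPP1 at 5.16. Replicate 2 did so in CDK6 at 4.56 and replicate 3 in SMAD5 at 7.41. The criterion sets the gap against the range of the 0 h values, however small that range is. It ran from 0.078 in MCM10 to 1.305 in DKK3 on the log2 scale. A2M, DKK1, IGFBP3, MGP, PAMR1, SLAMF1 and NR4A1 were below log2 4 on every 0 h array, so that their gaps lie between background values.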

How the results depend on the processing

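At 53 h against 0 h, leaving out 1 array at a time gave 4195 to 4775 genes called (1856 to 2287 higher, 2102 to 2518 lower), and the replicate number as a block gave 4756, and replicates 2 and 3 of 0 h, 18 h and 36 h averaged, a setting chosen after seeing the data, gave 4476 (2135 higher, 2341 lower). The labels give same-numbered arrays of both groups only a shared number (correlations of their deviations 0.109 and -0.117). With 2 arrays at 53 h the deviations mirror each other, so these correlations cannot decide whether arrays were paired. The block called 1088 genes at 53 h against 36 h, while 1391 were called at 72 h against 53 h. With it 3 cholesterol and lipid genes rose in place of 5, and 4 interferon and MHC genes fell in place of 0, at 53 h against 0 h. Leaving out probe sets with the suffix _x_at or _s_at, which left 4431 genes to test, calls were 2933 (1412 higher, 1521 lower) at 53 h against 0 h, 563 (295 lower) for 53 h set against 36 h, and 720 (260 higher, 460 lower) for 72 h set against 53 h. Requiring a log2 change of at least 1 gave 2185 (1133 higher, 1052 lower), 334 (220 higher, 114 lower) and 385 (203 higher, 182 lower) in the same order. The step at 53 h against 36 h also moved to 496 (207 lower) with only the groups compared, 1711 (701 higher, 1010 lower) with array weights and 388 (197 higher, 191 lower) with those replicates averaged. Leave-one-out fits there gave 321 to 1155 calls (178 to 456 higher, 143 to 699 lower). At 72 h against 53 h they gave 468 to 1007 calls (211 to 293 higher, 257 to 714 lower), centring gave 528 lower, the groups alone 630 higher and the averaged replicates 511 lower. With arrays centred, 49.3% of these calls were higher, against 33.7% without. Signs turned for the median of complement genes (-0.0192 with no filter on low values), and without the _x_at and _s_at probe sets for PCYT1A (0.81 at 53 h against 0 h, 0.31 at 53 h against 36 h) and TRA2A (-0.87 at 53 h against 0 h). Except where fewer genes or arrays entered, the cause was not tested. Of 257 named genes, 250 were called at 53 h against 0 h and 231 kept the call under every alternative in which they were tested. The requirement of a log2 change of at least 1 was not applied to named genes, and settings that left a gene out were not counted for it. With 2 arrays at 53 h, changes of low genes are limited by signal over background, and a gene that missed the threshold is not shown to be unchanged.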
